A study of Mus musculus with 31 samples.

Results

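The clustered protocadherins are cell-surface adhesion proteins encoded by 3 gene clusters, alpha, beta and gamma, that lie next to one another on mouse chromosome 18. The genes described here are the protein-coding genes whose symbols start with Pcdha, Pcdhb or Pcdhg, which gave 57 of the 25497 genes in the deposited tables. They were 12 stochastic alpha genes, 2 alpha C-type genes (Pcdhac1 and Pcdhac2), 22 beta genes, 12 gamma A genes, 6 gamma B genes and 3 gamma C-type genes (Pcdhgc3, Pcdhgc4 and Pcdhgc5). The filter on low counts kept 56 of the 57 among 14886 genes tested, and the gene it removed was Pcdhb1. Pcdhgb8, which the annotation calls a polymorphic pseudogene, was not counted as a member and averaged 31.2 estimated counts per library.

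Bulk polyadenylated RNA was sequenced from thalamus taken on postnatal day 90, in adulthood. The mice differed in how their mothers had been housed, either under social isolation rearing (SIR) or under control housing, and in sex. There were 7 SIR males, 8 SIR females, 8 control males and 8 control females. The labels name no strain, litter or batch, so p-values measure only the spread between these 31 libraries. The SIR libraries carry library numbers 320 to 432 and the control libraries 554 to 746, so housing and anything that followed this numbering cannot be told apart.

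Each stochastic protocadherin gene has its own promoter and variable exon, and single neurons switch on a small, largely random choice of them, which gives each cell a surface identity used in homophilic recognition and in the self-avoidance of dendrites and axons. The C-type genes are used more uniformly across neurons, and in mice Pcdhgc4 is needed for the survival of many neurons while Pcdhac2 is needed for the spacing of serotonergic axons. The variable exons of the alpha genes are spliced to one shared set of constant exons, and those of the gamma genes to another, whereas beta genes have no constant exons. Promoter choice depends on DNA methylation and on looping by CTCF and cohesin.

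Each library held between 13004178 and 25741879 estimated counts, with a median of 23281571. In the library labelled SIR female 5 the Y-linked gene Ddx3y stood at 41.6 CPM (counts per 1000000 counts of the library), against 31.5 to 50.2 CPM in the 15 libraries labelled male and at most 0.0481 CPM in the other 15 libraries labelled female. Calls that ended without this library, and the subset totals, shares and correlations that it moved, are also given without it. In bulk tissue, fewer cells of a type and less RNA per cell cannot be told apart. The genes of the thalamus marker list, which include Tcf7l2, Gbx2 and Prkcd, were all detected, and their summed median was 2743 CPM in SIR males, 3280 CPM in SIR females, 3324 CPM in control males and 3094 CPM in control females.

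How far a read can be assigned to 1 member differs between the clusters. A full alpha transcript shared 2860 bases of constant exons with its neighbours, 53.6% of the 5335 bases of Pcdha12, and a full gamma transcript shared 2119 bases, 44.8% of the 4730 bases of the main Pcdhga7 transcript. The median share of 31-base words found in 1 gene only was 36.8% in the stochastic alpha genes, 54.2% in gamma A, 47.6% in gamma B, 62.6% in the gamma C-type genes and 88.2% in the beta genes. Pcdha4 had the lowest share, 9.32%, and the annotation holds a second model, Gm42416, over its variable exon. That model itself averaged 0.34 estimated counts. Gene levels in the alpha and gamma clusters therefore rest on how the authors' quantification divided reads from the constant exons, and the beta values depend least on it.

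All 57 genes were detected in adult thalamus, and the C-type genes stood above the rest. On the per-length scale of TPM (transcripts per 1000000 transcripts), Pcdhgc3, which in mice promotes dendrite branching of cortical neurons, was the most abundant member at 85.8 ± 9.17 TPM (SD, n = 31). Pcdhgc4 followed at 46.9 ± 20.5 TPM, Pcdhgc5 at 26.6 ± 5.67 TPM and Pcdhac2 at 21.4 ± 2.13 TPM. Short transcripts made mostly of constant exons held 25.9 TPM of Pcdhgc4 (93.3% shared bases) and 8.60 TPM of Pcdhgc5 (75.2%). The full-length transcripts stood at 20.5 TPM for Pcdhgc4 and 17.6 TPM for Pcdhgc5. The order of Pcdhgc4, Pcdhgc5 and Pcdhac2 and the gamma C-type sum therefore rest on how constant-exon reads were divided. Pcdhac1 was the exception among the C-type genes, at 2.75 ± 0.605 TPM, within the range of the stochastic alpha genes. The 3 gamma C-type genes summed to 159 TPM, against 104 TPM for the 12 gamma A genes, 36.8 TPM for the 6 gamma B genes, 72.0 TPM for the 22 beta genes, 37.9 TPM for the 12 stochastic alpha genes and 24.1 TPM for the alpha C-type pair.

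Within the stochastic subsets most members lay close together. The stochastic alpha genes had a median level of 3.56 TPM, from Pcdha12 at 5.01 TPM, followed by Pcdha4 at 4.44 TPM and Pcdha6 at 4.02 TPM, down to Pcdha8 at 0.228 TPM. The beta genes had a median of 2.50 TPM, with Pcdhb9 at 10.3 TPM well above Pcdhb17 at 5.88 TPM and Pcdhb20 at 5.40 TPM, and Pcdhb1 lowest at 0.134 TPM. The gamma A genes had a higher median, 8.75 TPM, led by Pcdhga7 at 13.6 TPM, Pcdhga11 at 12.5 TPM and Pcdhga6 at 11.3 TPM, with Pcdhga1 lowest at 2.61 TPM. The gamma B genes had a median of 5.55 TPM, from Pcdhgb6 at 10.5 TPM through Pcdhgb2 at 6.22 TPM and Pcdhgb7 at 6.18 TPM to Pcdhgb1 at 4.47 TPM.

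**Figure D1:**
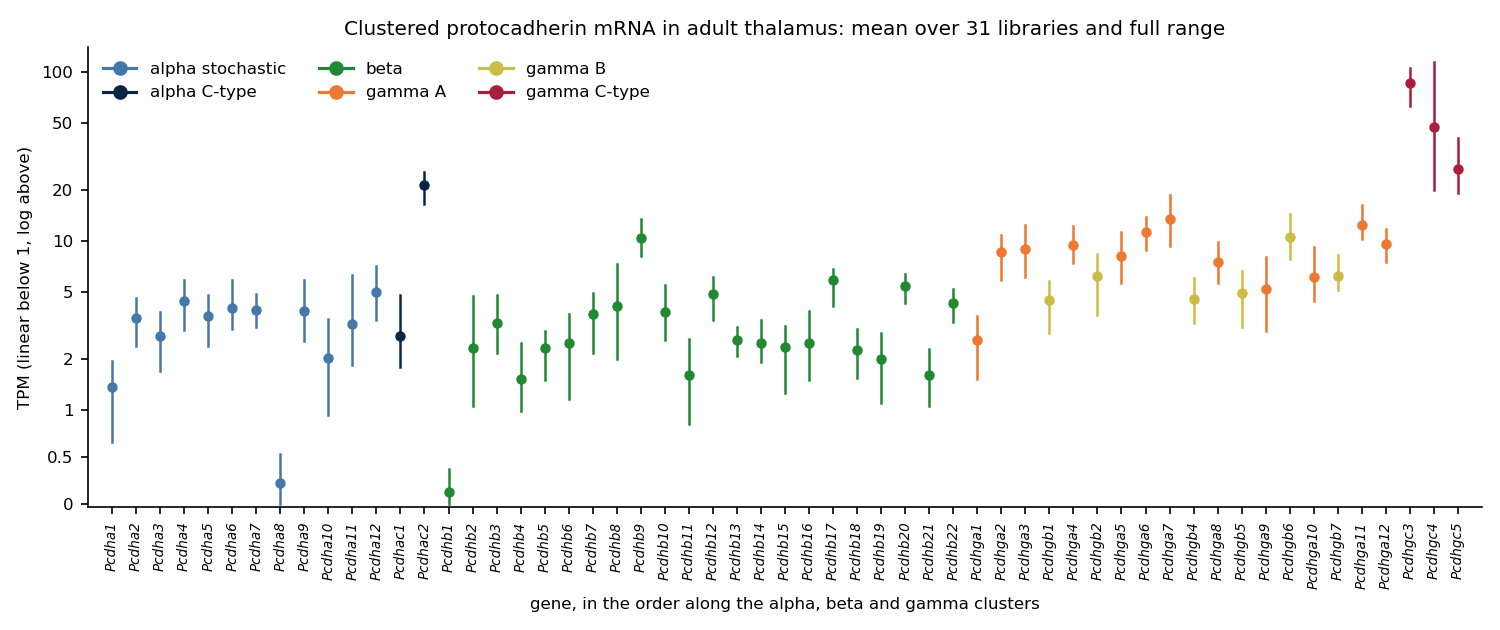
Level of each of the 57 genes in TPM, as the mean over 31 libraries (point) with the lowest and highest library (line), on an axis that is linear below 1 and logarithmic above. By their means, Pcdhgc3, Pcdhgc4, Pcdhgc5 and Pcdhac2 stand above all stochastic genes, and Pcdha8 and Pcdhb1 lie lowest.

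Neighbours in the order of levels mostly did not differ beyond their spread. Of 11 neighbouring pairs among the stochastic alpha genes, 2 differed by more than the larger SD of the pair, as did 3 of 21 beta pairs, 3 of 11 gamma A pairs and 2 of 5 gamma B pairs. The steps beyond that spread included those from Pcdhb9 to Pcdhb17, from Pcdha1 to Pcdha8, from Pcdhb4 to Pcdhb1 and from Pcdhgb6 to Pcdhgb2. Levels were also set against position along the cluster. Across genes, which are not independent replicates, Spearman's rho between order and TPM was 0.21 for the 12 stochastic alpha genes, 0.22 for the 22 beta genes, 0.26 for the 12 gamma A genes and 0.54 for the 6 gamma B genes. Pcdha8 was at 0 in 1 library, where 3 counts would be 0.158 CPM, and Pcdhb1 in 5 libraries, where 3 counts would be 0.124 to 0.240 CPM.

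The spread between animals, as the biological coefficient of variation of the count model, was compared with the trend fitted for genes of the same abundance. It lay above the trend in 22 of 56 members, against 23.8% of all genes tested. The subsets were uneven: 8 of 12 stochastic alpha genes, 6 of 12 gamma A genes, 3 of 6 gamma B genes and 3 of 3 gamma C-type genes lay above it, but 1 of 21 beta genes did. Estimated counts also carry any variation in how reads of the constant exons were divided. The median share of 31-base words found in 1 gene only was 36.8% in stochastic alpha and 88.2% in beta genes. The part of read division in these coefficients was not tested. Among the gamma C-type genes, Pcdhgc4 had the widest margin, with a coefficient of 17.5% against a trend of 9.82%.

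Summed over each subset in CPM, SIR and control offspring overlapped in every subset. The gamma cluster as a whole averaged 748 ± 36.8 CPM in SIR offspring (SD, n = 15) and 736 ± 33.9 CPM in control offspring (SD, n = 16). The alpha cluster averaged 160 ± 12.7 CPM in SIR offspring and 166 ± 11.9 CPM in control offspring, and the beta genes 129 ± 10.1 CPM in SIR offspring and 134 ± 9.96 CPM in control offspring. On the log2 scale these differences were 0.02 for gamma, -0.05 for alpha and -0.06 for beta, each smaller than 1 SD within groups. In CPM the alpha C-type total showed the largest difference relative to its spread, -0.10 on the log2 scale, or 0.84 of the within-group SD, with 11 of 15 SIR libraries below the control median. With the transcript-length trend of each library removed it differed by -0.04, or 0.42 SD.

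The gamma C-type total depended on the scale. In TPM it averaged 167 ± 18.04 in SIR offspring (SD, n = 15) and 152 ± 14.7 in control offspring (SD, n = 16), a log2 difference of 0.15, or 1.18 SD, with 13 of 15 SIR libraries above the control median. In males the TPM difference was 0.19, or 1.498 SD, with all 7 SIR males above the control male median, though the ranges overlapped. In CPM the gamma C-type difference was 0.07 (0.61 SD) over both sexes, and with the length trend removed 0.11 (0.98 SD). The gamma cluster as a whole differed by 0.06 in TPM, 0.07 with the length trend removed and -0.04 without the short Pcdhgc4 transcript. Without the library labelled SIR female 5, the CPM differences over both sexes were 0.02 for gamma, -0.05 for alpha and -0.05 for beta.

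**Figure D2:**
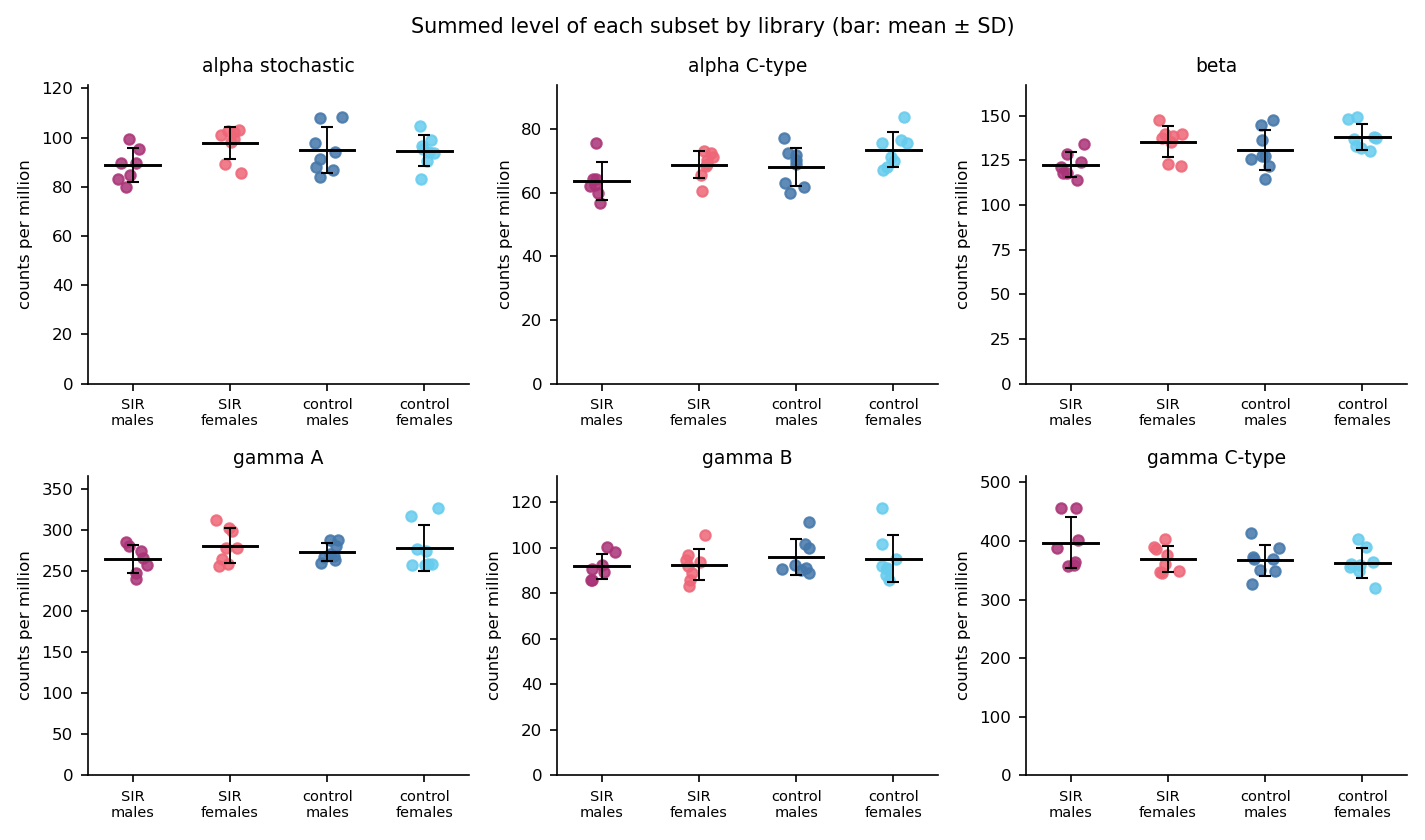
Summed CPM of each subset in every library, with SIR males, SIR females, control males and control females from left to right; bars show mean and SD. All groups overlap in each panel, and the beta total is lowest in SIR males, with a mean of 123 CPM.

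The share of C-type genes within a cluster likewise overlapped between groups. In the alpha cluster C-type genes held 41.7 ± 1.15% of the counts in SIR males, 41.3 ± 1.64% in SIR females, 41.8 ± 1.61% in control males and 43.7 ± 2.25% in control females (SD). In the gamma cluster they held 52.6 ± 3.56% in SIR males, 49.8 ± 2.35% in SIR females, 49.9 ± 2.64% in control males and 49.3 ± 3.09% in control females. The alpha share was 1.26 percentage points lower in SIR offspring, or 0.73 of the within-group SD. In females it was 2.37 points lower, or 1.38 SD, with 7 of 8 SIR females below the control female median, and the difference was 2.84 points without the library labelled SIR female 5. The gamma share was 1.62 percentage points higher in SIR offspring, which is 0.55 of the within-group SD, and 1.41 points higher without that library.

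Of the 56 genes tested, 1 passed an adjusted p of 0.05 for SIR against control over both sexes in edgeR's quasi-likelihood test, against 4.55% of all 14886 genes. It was Pcdhgc4. At an unadjusted p of 0.05, 2 members were higher and 10 lower in SIR offspring, against 9.38% and 12.7% of all genes. With 1 library left out, 2 members were called without SIR male 4, SIR female 11 or control female 18 or 24, and 3 without control female 20. Whether the members' shares differed from those of all genes was not tested. Fold changes were positive in 17 members and negative in 39, with a median of -0.03 on the log2 scale, against -0.01 for all genes. The split was 29 positive and 27 negative with the transcript-length trend of each library removed, 29 and 27 with 3 components of the marker lists in the model, and 24 and 32 with upper-quartile scaling.

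By subset, the members below control at an unadjusted p of 0.05 were 2 of 12 stochastic alpha genes, 1 of 2 alpha C-type genes, 5 of 21 beta genes, 1 of 12 gamma A genes and 1 of 6 gamma B genes. Pcdhac2 was one of them, with a lowest, median and highest value of 50.8, 56.6 and 62.9 CPM in SIR males, 55.0, 62.1 and 66.7 CPM in SIR females, 52.8, 63.4 and 71.3 CPM in control males and 60.8, 65.2 and 75.0 CPM in control females. The groups overlapped, and 13 of 15 SIR libraries lay below the control median. Its log2 fold change was -0.11 ± 0.04 (SE) with an adjusted p of 0.0992 in edgeR.

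Pcdha3, Pcdhgb1, Pcdhb19 and Pcdhb21 were chosen after their values were seen, from the genes that missed the threshold. Pcdha3 had medians of 6.03 CPM in SIR males, 6.62 CPM in SIR females, 7.67 CPM in control males and 7.44 CPM in control females, and all 15 SIR libraries lay below the control median. Pcdhgb1 had medians of 10.6 CPM in SIR males, 10.4 CPM in SIR females, 12.2 CPM in control males and 12.04 CPM in control females, with 14 of 15 SIR libraries below the control median. Pcdhb19 had medians of 5.12 CPM in SIR males, 6.39 CPM in SIR females, 6.70 CPM in control males and 6.995 CPM in control females, with 11 of 15 below. In that order their log2 fold changes were -0.22 ± 0.08, -0.23 ± 0.08 and -0.24 ± 0.08 (SE), with adjusted p of 0.0857, 0.0692 and 0.0644 in edgeR. Pcdhb21 differed by -0.29 ± 0.10, with an adjusted p of 0.0938 in edgeR and 14 of 15 SIR libraries below the control median. All 4 genes overlapped between the groups.

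**Figure D3:**
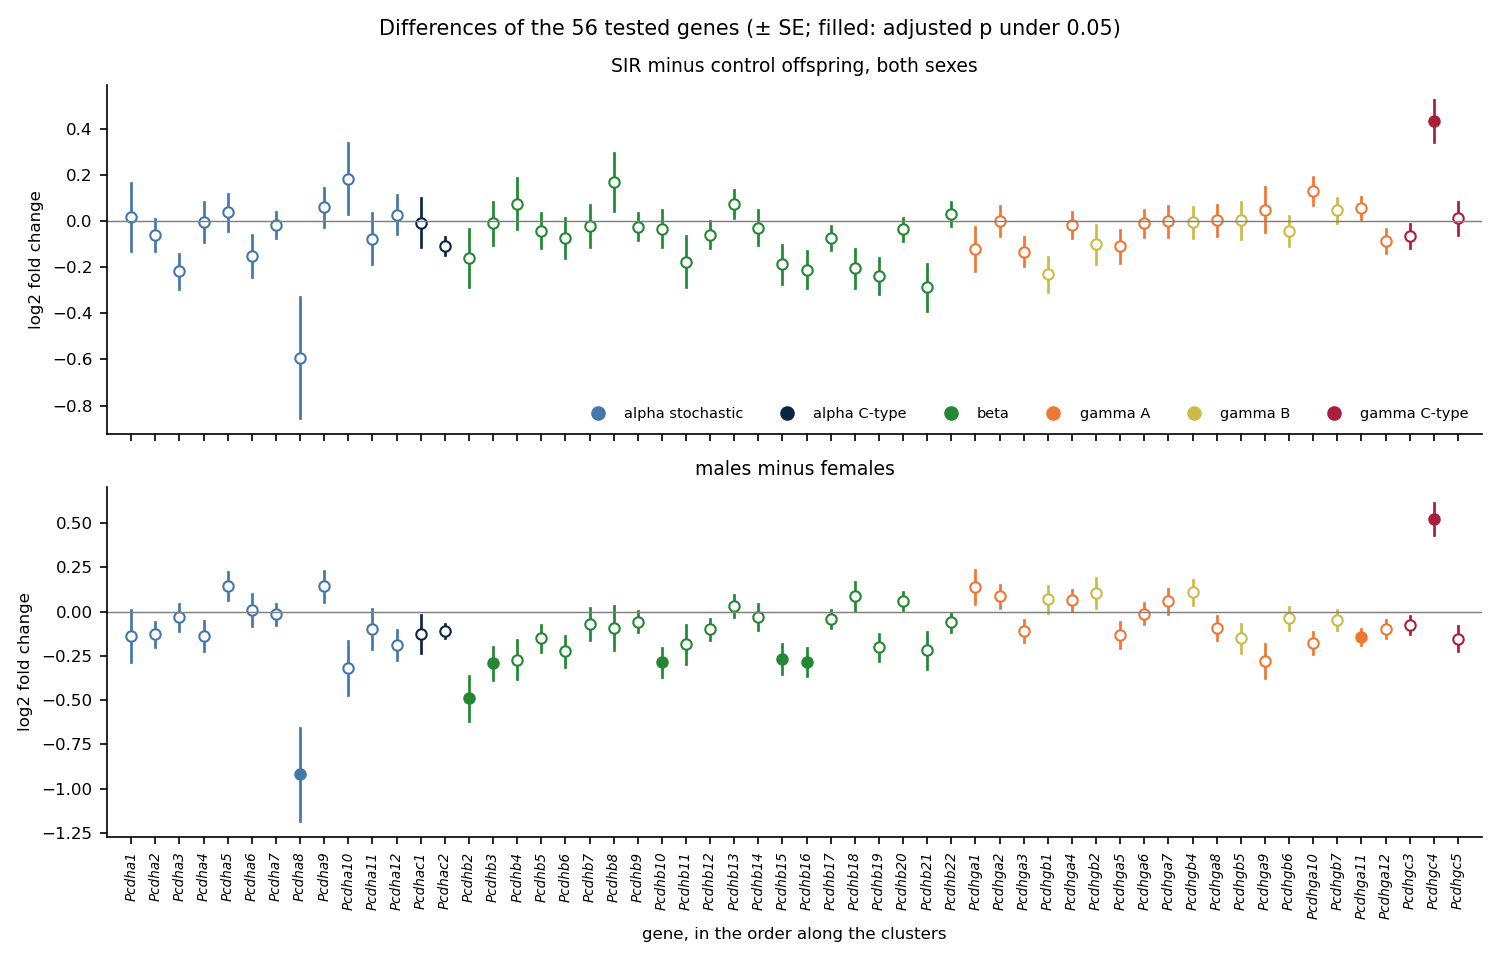
log2 fold change of each tested gene, in the order along the clusters, with the standard error; filled points have an adjusted p under 0.05 in edgeR. The upper panel is SIR minus control over both sexes, where Pcdhgc4 at 0.43 is the only filled point, and the lower panel is males minus females, with 8 filled points.

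Within males 0 of 56 members were called, against 1.33% of all genes, and 7 had an unadjusted p under 0.05 (1 higher, 6 lower), against 17.6%. In females 1 was called, again Pcdhgc4, against 4.62%. The difference between the sexes in the effect of housing was called for 0 of 56 members, against 2.83% of all genes, and 4 had an unadjusted p under 0.05, against 15.3%. One of these 4 was Pcdha8, with -1.42 ± 0.41 in males and an interaction of -1.65 ± 0.53 on the log2 scale, adjusted p = 0.0857 in edgeR. It rests on few reads, at most 9.53 estimated counts per SIR male library and 20.8 per control male library.

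Other tools called more members and more genes alike. DESeq2 called 3 members over both sexes, against 9.67% of the genes it adjusted, 1 in males (5.9%), 2 in females (6.53%), 1 for the difference between the sexes (4.16%) and 9 for males minus females (12.6%). The 2 it added over both sexes were Pcdhb19 and Pcdhgb1, both lower in SIR offspring, and its call for the difference between the sexes was Pcdha8. limma-voom called 4 over both sexes (8.33% of all genes), 1 in males (4.23%), 4 in females (7.96%), 2 for the difference between the sexes (4.79%) and 14 for males minus females (19.9%). Over both sexes it added Pcdhb16, Pcdhb19 and Pcdhb21, all lower in SIR offspring, with Pcdhb16 at -0.26 and an adjusted p of 0.0262. DESeq2 and limma-voom both called Pcdhga10 higher in SIR females, with adjusted p of 0.0494 and 0.0298. Pcdhga10 was also called in females by edgeR with the length trend removed (0.0350). The limma-voom calls for the difference between the sexes were Pcdhga8 and Pcdha9. Pcdhga10, Pcdhga8 and Pcdha9 were named after their values were seen. Pcdha9 had medians of 9.24 CPM in SIR males, 10.4 CPM in SIR females, 11.1 CPM in control males and 7.91 CPM in control females, with overlapping ranges and an adjusted p of 0.122 for this difference in edgeR. Pcdhgc4 was called over both sexes by each of the 3 tools.

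Pcdhgc4 (ENSMUSG00000023036) had the largest fold increase of any member. Its lowest, median and highest values were 106, 120 and 187 CPM in SIR males, 61.3, 96.1 and 112 CPM in SIR females, 76.1, 93.1 and 122 CPM in control males and 56.7, 62.1 and 89.7 CPM in control females. SIR males lay highest and control females lowest, SIR females and control males had similar levels, and within each sex the ranges overlapped. Over both sexes the log2 fold change was 0.43 ± 0.09 (SE), a 1.35-fold difference with a 95% interval of 0.25 to 0.61 on the log2 scale and an adjusted p of 0.0137 in edgeR, and 12 of 15 SIR libraries lay above the control median. In females it was 0.43 ± 0.13 with an adjusted p of 0.0452, and in males 0.43 ± 0.13 with an adjusted p of 0.0749. The difference over both sexes was larger where transcript lengths entered the values, at 0.70 ± 0.15 with transcript length offsets (adjusted p = 0.0128 in edgeR) and 0.66 ± 0.13 on log2(TPM + 1) (adjusted p = 0.0156 in limma). In females it was 0.71 with length offsets, where the adjusted p of 0.0516 missed the threshold, and 0.69 on log2(TPM + 1), with an adjusted p of 0.0383 in limma.

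Without the library labelled SIR female 5, the difference over both sexes was 0.43 on the log2 scale with an adjusted p of 0.0248 in edgeR, and in females 0.42 with an adjusted p of 0.0740. Over both sexes the call held with each of the 31 libraries left out in turn, with adjusted p from 0.00875 to 0.0272. In females it was lost in 16 of the 31 such fits, where the adjusted p reached 0.0929: those without SIR female 2, 3, 5, 7, 10 or 12, SIR male 8, control female 17, 20, 24, 26, 29 or 30, or control male 23, 25 or 27. With 3 components of the cell-type marker lists in the model it missed the threshold over both sexes, at 0.39 and an adjusted p of 0.0651, and in females, at 0.46 and 0.115, where Pcdhac2 was the member called instead, at -0.20 and 0.0426. Over both sexes it also missed it without the 8 libraries numbered apart from the rest, at 0.41 and 0.0735.

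In the estimated counts, the difference in Pcdhgc4 was assigned to 1 of its 3 transcripts, the short one. The uncertainty of dividing reads between transcripts, or between gamma genes, is not part of the tests. The files list a full-length coding transcript of 5024 bases, a short coding transcript of 2272 bases (ENSMUST00000195239) and a single-exon transcript of 3100 bases annotated as a retained intron. The short one consists of the 3 gamma constant exons, 2119 bases that it shares with the other gamma genes, and 153 bases of its own, so that 93.3% of its sequence is common to the cluster and 6.74% of its 31-base words are found in Pcdhgc4 only. It averaged 25.9 TPM, against 20.5 TPM for the full-length transcript and 0.465 TPM for the retained intron.

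The short transcript varied widely between libraries and the full-length one did not. The short transcript had lowest, median and highest values of 39.5, 60.2 and 131 CPM in SIR males, 9.64, 33.3 and 50.4 CPM in SIR females, 3.61, 33.1 and 66.4 CPM in control males and 0, 5.75 and 27.3 CPM in control females. In 3 of the 8 control females it held under 3 estimated counts; where it was at 0, 3 counts would be 0.140 CPM. It made up 51.0 ± 11.5% of the Pcdhgc4 counts in SIR males, 32.3 ± 12.3% in SIR females, 30.6 ± 15.5% in control males and 12.8 ± 13.4% in control females (SD).

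The full-length Pcdhgc4 transcript averaged 59.985 ± 6.14 CPM in SIR males, 59.2 ± 5.86 CPM in SIR females, 64.2 ± 7.45 CPM in control males and 56.2 ± 3.39 CPM in control females (SD). Its log2 fold change over both sexes was 0.01 ± 0.05 (SE), with an adjusted p of 0.997 over the 41273 transcripts tested in edgeR. The short transcript differed by 1.41 ± 0.49, with an unadjusted p of 0.00707 and an adjusted p of 0.213, and 13 of 15 SIR libraries lay above its control median. In all, 0 of 70 member transcripts were called over both sexes, against 0.177% of all transcripts, 9 had an unadjusted p under 0.05, against 10.4% of all transcripts, and limma-voom also called 0.

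**Figure D4:**
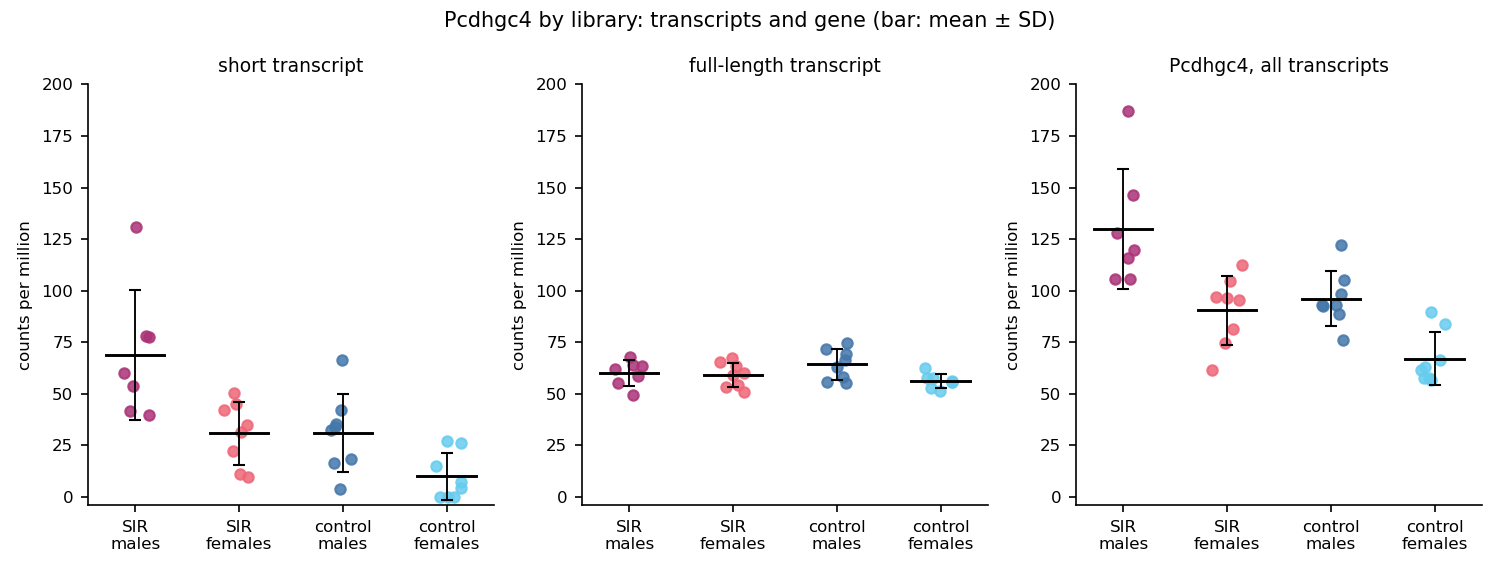
CPM of the short and the full-length Pcdhgc4 transcript and of the gene in every library, for SIR males, SIR females, control males and control females; bars show mean and SD. The full-length transcript lies between 49.6 and 74.7 CPM in all libraries, while the short one spans 0 to 131 CPM.

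When the short transcript was left out of the gene sums, an alternative chosen after the data were seen, Pcdhgc4 differed by -0.02 on the log2 scale over both sexes, with an adjusted p of 0.884 in edgeR, and 0 of 56 members were called. Without it the gamma C-type total averaged 334 ± 32.8 CPM in SIR offspring (SD, n = 15) and 344 ± 25.9 CPM in control offspring (SD, n = 16), against 383 ± 35.5 CPM in SIR offspring and 365 ± 25.3 CPM in control offspring with it. The gamma C-type share was then 47.7 ± 2.83% in SIR offspring and 48.1 ± 2.66% in control offspring.

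The level of the short transcript moved with a property of the whole library, its length slope. It is the slope, over all genes tested, of log2 CPM relative to the gene's mean over the libraries on log2 mean effective transcript length. A negative slope means that genes with short transcripts hold more of the counts than in the average library. The slope averaged -0.04 ± 0.02 in SIR males, 0.00 ± 0.02 in SIR females, 0.00 ± 0.02 in control males and 0.03 ± 0.03 in control females (SD). SIR males were lowest and control females highest in slope, while the short transcript was highest in SIR males and lowest in control females. Across the 31 libraries Pearson's r was -0.79 and Spearman's rho -0.80, each with a permutation p of 1e-05, the smallest that 100000 permutations can give, and 5e-05 after Benjamini-Hochberg adjustment over 10 relations. Without the 2 libraries farthest from the median slope r was -0.80, and without the library labelled SIR female 5 it was -0.79.

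Because the groups differ in both measures, the relation was also taken within housing. In the 15 SIR libraries r was -0.87 (permutation p = 6e-05, adjusted 0.0002) and rho -0.83 (p = 0.00023, adjusted 0.00077). In the 16 control libraries r was -0.47 (permutation p = 0.068, adjusted 0.11) and rho -0.56 (p = 0.026, adjusted 0.043). With the means of the 4 groups removed r was -0.52 (permutation p = 0.0024, adjusted 0.0059) and rho -0.53 (p = 0.0026, adjusted 0.0064). The full-length transcript had an r of 0.17 across all 31 libraries (permutation p = 0.36, adjusted 0.52), and 0.49 with the group means removed (permutation p = 0.0044, adjusted 0.0089). With the length trend removed by the gene's mean length, Pcdhgc4 as a gene differed by 0.47 with an adjusted p of 0.0284 in edgeR. The part of the length slope in the short transcript was not tested.

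**Figure D5:**
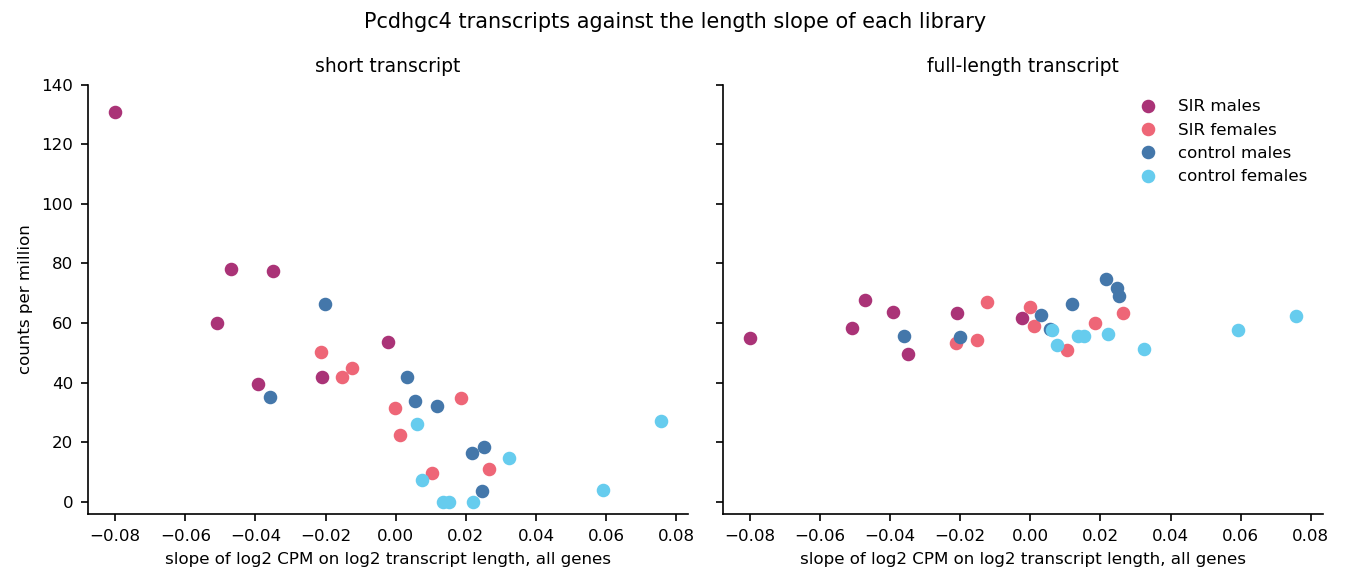
CPM of the short and the full-length Pcdhgc4 transcript against the length slope of the same library, 1 point per library, coloured by group. The slope is that of log2 CPM, relative to each gene's mean over the libraries, on log2 transcript length. Across the 31 libraries r is -0.79 for the short transcript and 0.17 for the full-length one. With the group means removed r is -0.52 for the short transcript and 0.49 for the full-length one.

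No other C-type gene was called for SIR against control over both sexes in edgeR. Pcdhgc3 had lowest, median and highest values of 176, 210 and 283 CPM in SIR males, 206, 227 and 241 CPM in SIR females, 201, 222 and 249 CPM in control males and 204, 244 and 274 CPM in control females. The SIR male range enclosed those of the other groups, and the log2 fold change over both sexes was -0.06 ± 0.05 (SE; adjusted p = 0.481 in edgeR). Pcdhgc5 had medians of 45.8 CPM in SIR males, 54.1 CPM in SIR females, 48.2 CPM in control males and 51.2 CPM in control females, a difference of 0.01 ± 0.07 with a 95% interval from -0.13 to 0.15. Pcdhac1 had medians of 6.38 CPM in SIR males, 7.56 CPM in SIR females, 6.86 CPM in control males and 7.93 CPM in control females, a difference of -0.01 ± 0.11. Of the 26.6 TPM of Pcdhgc5, 8.60 TPM came from a 593-base transcript that is 75.2% constant exon.

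More members were called between the sexes than between housings, and so were more of all genes, 10.1% against 4.55%. Over both housings 8 of 56 were called for males minus females, against 10.1% of all genes: 1 was higher in males, against 4.44%, and 7 were lower, against 5.65%. With 1 library left out, 5 were called without SIR male 6, SIR female 7, 9, 11 or 12, or control male 22, 27 or 28. At an unadjusted p of 0.05, 17 members were lower in males, against 14.4% of all genes. By subset, 18 of 21 beta genes, 9 of 12 stochastic alpha genes, both alpha C-type genes, 8 of 12 gamma A genes, 3 of 6 gamma B genes and 2 of 3 gamma C-type genes had a negative fold change, against 51.8% of all genes. Differences between subsets, or between the members and all genes, were not tested. The beta median was -0.15 on the log2 scale, against -0.01 for all genes, and -0.13 with the length trend removed.

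Pcdhb2 had the largest sex difference among the beta genes. Its lowest, median and highest values were 1.05, 2.08 and 2.87 CPM in SIR males and 1.43, 2.36 and 2.87 CPM in control males, against 1.959, 2.85 and 4.12 CPM in SIR females and 2.72, 2.94 and 5.44 CPM in control females. All 15 male libraries lay below the female median, though the ranges overlapped. The log2 difference was -0.49 ± 0.13 (SE) with an adjusted p of 0.0132 in edgeR, and the call held with each library left out in turn. Over 13 other settings of the edgeR, DESeq2 and limma fits, Pcdhb2 was called in 9, with adjusted p up to 0.0878.

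Pcdhb10 and Pcdhb16 were lower in males by the same measure and also kept their calls in all 31 leave-one-out fits. Over 13 other settings of the edgeR, DESeq2 and limma fits, Pcdhb10 was called in 12 and Pcdhb16 in 11. Their adjusted p reached 0.233 and 0.151 there. Pcdhb10 had medians of 4.70 CPM in SIR males and 4.83 CPM in control males, against 5.65 CPM in SIR females and 5.97 CPM in control females, a difference of -0.29 ± 0.08 (SE; adjusted p = 0.0242 in edgeR). Pcdhb16 had medians of 4.56 CPM in SIR males and 6.28 CPM in control males, against 6.57 CPM in SIR females and 6.68 CPM in control females, a difference of -0.28 ± 0.08 (adjusted p = 0.0219 in edgeR). In both genes 13 of 15 male libraries lay below the female median.

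Pcdhb3, Pcdhb15 and Pcdhga11 were called with less margin. Their log2 differences were -0.29 ± 0.09, -0.27 ± 0.09 and -0.14 ± 0.05 (SE), with adjusted p of 0.0404, 0.0412 and 0.0468 in edgeR. Pcdhb3 had medians of 4.81 CPM in SIR males and 5.43 CPM in control males, against 7.10 CPM in SIR females and 5.93 CPM in control females. The calls were lost in 16, 19 and 22 of the 31 leave-one-out fits, where the adjusted p reached 0.0686 without SIR female 9 for Pcdhb3, and 0.0852 and 0.103 without SIR male 1 for Pcdhb15 and Pcdhga11. Pcdha8, at -0.92 ± 0.26 and an adjusted p of 0.0246, kept its call in all 31 but averaged 5.36 estimated counts in SIR males and 13.5 in control males, against 18.98 in SIR females and 14.5 in control females. Over 12 other settings of the edgeR, DESeq2 and limma fits, Pcdha8 was called in 9, with adjusted p up to 0.123.

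Pcdhgc4 ran the other way, with males higher by 0.52 ± 0.09 on the log2 scale (SE; adjusted p = 0.000723 in edgeR) and 14 of 15 male libraries above the female median. Without its short transcript the difference was 0.11 with an adjusted p of 0.122, and the other 7 calls remained. Across member transcripts 0 of 70 were called for males minus females, against 1.58% of all transcripts, and 14 had an unadjusted p under 0.05, against 12.5%. Without the library labelled SIR female 5, 9 genes were called, 1 higher and 8 lower in males. The oligodendrocyte marker sum also differed, with medians of 9292 CPM in SIR males and 7772 CPM in control males, against 8873 CPM in SIR females and 11275 CPM in control females. The choroid plexus list had medians of 28.9 CPM in SIR males and 41.9 CPM in control males, against 30.9 CPM in SIR females and 80.0 CPM in control females, where it reached 1889 CPM. The hypothalamus list had medians of 311 CPM in SIR males and 299 CPM in control males. In SIR females it had 246 CPM and in control females 55.9 CPM. By housing, the 6 oligodendrocyte genes were all higher in SIR males and all lower in SIR females. edgeR called 2 of them in males, against 1.33% of all genes, and 3 in females, against 4.62%. The 8 choroid plexus genes tested were all lower in SIR offspring over both sexes, 2 of them called, against 2.79%. No gene of these lists averaged under 0.1 CPM in any group. With 3 components of the marker lists in the model 4 members were called, namely Pcdhgc4, Pcdhb10, Pcdhb16 and Pcdhac2, and the part of these cells in each sex difference was not otherwise tested.

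The machinery that acts on the clusters was examined through 3 lists. Of 11 genes for chromatin architecture, 2 were called lower in SIR offspring over both sexes, against 2.79% of all genes, and 0 higher, against 1.76%: Nipbl, which loads cohesin, and Stag2, a cohesin subunit. All 11 had negative fold changes, against 52.3% of all genes, with a median of -0.05 on the log2 scale, but 2 turned positive and 0 were called with the length trend removed. Nipbl had medians of 44.7 CPM in SIR males, 48.9 CPM in SIR females, 50.8 CPM in control males and 54.8 CPM in control females. Nipbl spanned 39.7 to 45.9 CPM in SIR males and 46.9 to 56.9 CPM in control males, and its ranges overlapped in females. Stag2 overlapped in males, at 47.5 to 58.3 CPM in SIR males and 55.6 to 69.5 CPM in control males. The share of all genes with separate ranges in males was not counted. Nipbl differed by -0.18 ± 0.04 (SE; adjusted p = 0.0124) and Stag2 by -0.16 ± 0.04 (adjusted p = 0.0410), both in edgeR. With the length trend removed Nipbl differed by -0.10 (adjusted p = 0.0807) and Stag2 by -0.13 (0.116). With 3 marker components they differed by -0.15 (0.0532) and -0.13 (0.144), and without the libraries numbered apart by -0.13 (0.126) and -0.09 (0.351). Without the library labelled SIR female 5 the adjusted p in edgeR was 0.0240 for Nipbl and 0.0680 for Stag2. The Stag2 call was also lost with no filter on low counts (0.0615), with transcript length offsets (0.0532) and without the 2 shallowest libraries (0.0872).

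Of 10 genes for DNA methylation and silencing, 0 were called over both sexes by edgeR, against 4.55% of all genes. At an unadjusted p of 0.05, 3 were lower, against 12.7% of all genes. Fold changes were positive in 1 and negative in 9 of them, against 52.3% negative among all genes, with a median of -0.10 on the log2 scale. Of 19 cytoplasmic and membrane partners, 1 was called lower, against 2.79% of all genes, and 0 higher, against 1.76%. The gene called was Abi2, a subunit of the actin-regulating WAVE complex, which binds the tails of some protocadherins. Its log2 fold change was -0.15 ± 0.04 (adjusted p = 0.0417 in edgeR). It differed by -0.12 with the length trend removed (adjusted p = 0.113), by -0.09 with 3 marker components (0.264), by -0.10 without the libraries numbered apart (0.202), by -0.13 with upper-quartile scaling (0.0562), by -0.11 in limma-voom (0.0644) and by -0.15 without the library labelled SIR female 5 (0.0673). The Abi2 call was also lost with no filter on low counts (0.0604), with transcript length offsets (0.110), on log2(TPM + 1) (0.128) and without the 2 shallowest libraries (0.0659). Of the 19 partners, 12 had negative fold changes, against 52.3% of all genes. Adam10, the protease that sheds gamma protocadherins, differed by -0.12 ± 0.04 (adjusted p = 0.0522 in edgeR). Of the genes that lie inside or beside the clusters, 11 passed the filter. Over both sexes 0 of these were called by edgeR, against 4.55% of all genes, and 0 had an unadjusted p under 0.05, against 22.1%.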

How the data were processed

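Poly-A RNA of 31 thalamus libraries was made with a stranded kit and quantified with kallisto against GRCm39, with FastQC named for quality control, per the submitters' processing notes; their versions and the strand setting are not given in the sources used here. Each deposited file holds an estimated count, an effective length and a TPM value for each transcript, per the file headers. Of 105878 transcripts, 104949 (99.12%) matched GENCODE M21 and were summed to genes, and estimated counts were rounded. ENSMUSG00000007440 was taken as Pcdha10, as in RefSeq. Genes passing filterByExpr, scaled by TMM, were tested with edgeR 4.0.16 (glmQLFit, robust, 1 mean per group) in R 4.3.3, with Benjamini-Hochberg adjustment over all genes tested and a threshold of 0.05. limma 3.58.1 and DESeq2 1.42.0 were alternatives. Of these steps, only the edgeR gene fit was tested on simulated counts. Permutations (100000) used Python 3.11.15 and scipy 1.17.1. Sums over a subset and shares of a cluster were described without a test. The members and lists were chosen with earlier results of these data known. Genes were named if C-type, called, or among the 3 highest or the lowest of a stochastic subset by TPM, and others are said to be chosen after their values were seen. The 95% intervals of fold changes come from the fitted standard errors and include the spread between libraries, whereas limits from a count of 0 cover counting error only.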

Additional observations from a re-analysis of the deposited data

Results flagged for a closer look

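In 14 of 152 groups of libraries, examined over 38 quantities (9.21%), the highest or lowest library lay apart from the others by Dixon's 95% criterion, which chance meets in about 1 in 20 groups. All values are CPM. In SIR males, Pcdhac1 was 12.8 in replicate 14, against 4.54 to 7.70 in the others, Pcdhb20 was 9.96 in replicate 14, against 8.10 to 8.63, and the alpha C-type total was 75.7 in replicate 14, against 56.6 to 64.3. Pcdhgb2 was 10.0158 in SIR male replicate 15, against 14.8 to 18.3 in the others, and the short Pcdhgc4 transcript was 131 in SIR male replicate 1, against 39.5 to 78.0. In SIR females, Pcdhb15 was 1.79 in replicate 10, against 3.04 to 4.06, and Pcdhgb7 was 18.1 in replicate 7, against 15.4 to 16.5. In control males, Pcdhb16 was 4.26 in replicate 27, against 5.62 to 6.83, Pcdhga6 was 36.5 in replicate 23, against 24.8 to 29.97, and Pcdhga11 was 38.6 in replicate 23, against 28.4 to 33.0. In control females, Pcdha12 was 8.98 in replicate 29, against 12.2 to 14.6, and Pcdhb2 was 5.44 in replicate 31, against 2.72 to 3.46. In control female replicate 20, Pcdhgb6 was 35.9, against 24.1 to 27.2, and Pcdhgc5 was 68.6, against 45.4 to 55.4.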

How the results depend on the processing

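Over both sexes, edgeR called 1 member for SIR minus control, DESeq2 3 and limma-voom 4, while 0 were called with 3 marker components, without the 8 libraries numbered apart from the rest, or without the short Pcdhgc4 transcript; with it left out, Pcdhgc4 stood at -0.0162 and the gamma C-type total at -0.0485 on the log2 scale. In males edgeR called 0, and DESeq2 and limma-voom 1 each. In females edgeR called 1, DESeq2 2, limma-voom 4, the fits with the length trend removed and without the 2 shallowest libraries 2 each, the fit with marker components 1 (Pcdhac2 in place of Pcdhgc4), and 0 were called with no filter, with length offsets, without the libraries numbered apart, without SIR female 5, in a fit on females alone and without the short transcript. For the difference between the sexes in the SIR effect edgeR called 0, DESeq2 1, limma-voom 2 and the fit without the 2 shallowest libraries 1. For males minus females edgeR called 8, limma-voom 14, the fits with no filter and with the length trend removed 5 each, length offsets and marker components 4 each, log2(TPM + 1) 2, and the fit without the libraries numbered apart 1 (Pcdhgc4). The cause of these changes was not tested. With each library left out in turn, 1 to 3 members were called over both sexes, 0 to 1 in males, 0 to 1 in females, 0 to 1 for the difference between the sexes and 5 to 9 for males minus females, and 0 member transcripts over both sexes. No paired analysis was possible because the replicate numbers are each used once and no groups share them. Low-count genes such as Pcdha8 are limited by depth.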
